A study of Caenorhabditis elegans with 2 samples.

Results

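Of the 2416 regions that the RBM-26 ChIP-seq list placed on the 6 nuclear chromosomes of Caenorhabditis elegans, 368 (15.2%) had their summit in an intron of a protein-coding gene. Overlapping rows of the conservative list, which is thresholded on the irreproducible discovery rate (IDR, a measure of agreement between replicates), were merged to 1 region each with the summit of the row of highest signal. Summits within 250 bp of an annotated tRNA, snoRNA, snRNA or miRNA gene were dropped, and a summit was kept if it lay inside a protein-coding gene and in no exon of any protein-coding transcript. Intron sequence under the same filter is 33.0% of the nuclear genome, so introns held a smaller share of regions (15.2%) than of sequence. The 368 regions lay in 302 host genes, which are 1.57% of the 19286 protein-coding genes with an intron.

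The worms were whole young adults of strain OP801, collected at 66 hours after synchronisation by bleaching and starvation at the first larval stage. All carried wgIs801, an integrated fosmid transgene that expresses RBM-26 (sequence name B0336.3) with TY1, EGFP and 3xFLAG tags, with unc-119(+) as rescue in an unc-119(tm4063) background, so the tagged protein came from the transgene of 1 strain. Chromatin was sonicated to 200 to 800 bp and precipitated with an antibody against GFP, and the 2 libraries are biological replicates of 1 group, with no other condition. A control named as possible in the labels was not analysed here, and the read depth of each library is unknown.

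RBM-26 belongs to a family of nuclear RNA-binding proteins whose human members RBM26 and RBM27 are linked to RNA decay in the nucleus. ChIP recovers DNA that a protein is cross-linked to, directly, through other proteins or through RNA still attached to chromatin. Introns are transcribed with their gene and then spliced out. In worms they also hold enhancers, internal promoters that give shorter transcripts, and whole genes nested within them, among these many small non-coding RNA genes. An intronic summit can therefore mark the host gene, a transcript that starts inside it, or another gene, and position alone does not tell these apart.

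The DNA under the summits held more G and C than its flanks, at a mean of 45.9% against 36.1%. A short purine repeat, GAGAGA, lay within 150 bp of 46.2% of intronic summits and of 35.2% of those in the other nuclear regions. The sequences are from the RefSeq copy of assembly WBcel235, the genome that the UCSC name ce11 also denotes. The first set shows the 61 bp around 5 summits that hold the 10-base sequence GAGACGCAGA, in capitals. This 10-mer was the most frequent of those found when these same data were searched, so its counts are a description.
epg-9 intron, chrIV:2602112-2602172, minus strand: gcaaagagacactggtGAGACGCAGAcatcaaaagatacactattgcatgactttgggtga
zfp-1 intron, chrIII:8802076-8802136, minus strand: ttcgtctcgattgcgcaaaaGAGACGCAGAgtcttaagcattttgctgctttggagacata
Y111B2A.12 intron, chrIII:12612652-12612712, minus strand: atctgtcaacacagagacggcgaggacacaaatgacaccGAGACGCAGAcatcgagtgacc
cyc-2.1 intron, chrIV:4748576-4748636, plus strand: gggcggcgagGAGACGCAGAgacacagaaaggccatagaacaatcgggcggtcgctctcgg
pqn-41 intron, chrIII:1926585-1926645, minus strand: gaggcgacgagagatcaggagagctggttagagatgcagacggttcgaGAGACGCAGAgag
The second set shows 3 summits with the GA repeat GAGAGA in capitals, chosen because this was the most frequent of the 8 motifs counted. The genes are mnk-1, a kinase that acts on the translation factor eIF4E, skn-1, the worm Nrf factor of the oxidative stress response, and nhr-40, a nuclear hormone receptor.
mnk-1 intron, chrII:10552123-10552183, plus strand: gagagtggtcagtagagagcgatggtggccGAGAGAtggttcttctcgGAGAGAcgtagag
skn-1 intron, chrIV:5657187-5657247, plus strand: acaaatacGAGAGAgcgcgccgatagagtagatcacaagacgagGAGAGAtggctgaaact
nhr-40 intron, chrX:2598954-2599014, minus strand: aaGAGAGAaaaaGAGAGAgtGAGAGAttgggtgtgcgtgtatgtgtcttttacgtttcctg
The third set shows 3 summits with the palindrome CACGTG, the E-box that many basic helix-loop-helix factors recognise, in capitals.
F09A5.3 intron, chrX:13145337-13145397, plus strand: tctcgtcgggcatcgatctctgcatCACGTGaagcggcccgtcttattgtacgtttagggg
T28B11.1 intron, chrV:10715917-10715977, plus strand: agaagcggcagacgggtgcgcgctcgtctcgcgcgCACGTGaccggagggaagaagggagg
fkh-7 intron, chrIV:5591313-5591373, plus strand: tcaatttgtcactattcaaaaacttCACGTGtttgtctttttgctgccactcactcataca
The last pair shows the summit of highest signal and one just upstream of the histone acetyltransferase gene hat-1, each with 50 bp on either side and no letters marked.
mom-1 intron, chrX:6296514-6296614, plus strand: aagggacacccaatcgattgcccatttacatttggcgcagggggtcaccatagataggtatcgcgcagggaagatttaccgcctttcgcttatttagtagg
M03C11.3 intron, chrIII:10407430-10407530, plus strand: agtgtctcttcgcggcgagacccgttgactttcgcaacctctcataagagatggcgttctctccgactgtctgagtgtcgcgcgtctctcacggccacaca

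A smaller share of the intronic regions than of the other regions was found in both replicates' own lists. Of the 368, 129 (35.1%, 95% Wilson interval 30.4 to 40.1) overlapped by at least 1 bp the separately thresholded lists of both replicates, against 968 of the 2048 other nuclear regions (47.3%, 45.1 to 49.4) and 45.4% of all nuclear regions. A further 100 (27.17%) overlapped the list of replicate 1 only, 37 (10.05%) that of replicate 2 only, and 102 (27.7%) neither. Among the other nuclear regions these shares were 21.53%, 9.18% and 22.02% in the same order. More regions in replicate 1 only than in replicate 2 only was therefore not particular to introns. The intervals cover the counting of regions only, and no test was run, since regions of a genome are not replicates of a condition. The list of replicate 1 alone held 273 intronic regions by the same rule and that of replicate 2 alone held 190.

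The signal, the authors' own deposited value for each peak with no stated scale, had a median of 131.7 in the 368 intronic regions (quartiles 110.1 and 175.2), against 148.5 in the other nuclear regions (116.3 and 204.4). Support followed signal. Of the 123 intronic regions of highest signal (155.6 to 567.9), 86.2% overlapped both replicates' lists, against 18% of the 122 in the middle and 0.813% of the 123 lowest (12.7 to 114.9). In the longer ranked lists, 364 of the 368 could be matched in both replicates. There the median signal of intronic regions was 71.8 in replicate 1 and 64.8 in replicate 2, and the median ratio of replicate 1 to replicate 2 was 1.10. The ranks of the matched regions had a Spearman rho of 0.569 across the 364 intronic regions and 0.628 across 2038 other regions. These values are across regions that share their libraries, and they are a description of regions already selected for agreement. A row of the commonest width, 620 bp, was part of 241 intronic regions (65.5%) and of 53.6% of the other regions.

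**Figure D1:**
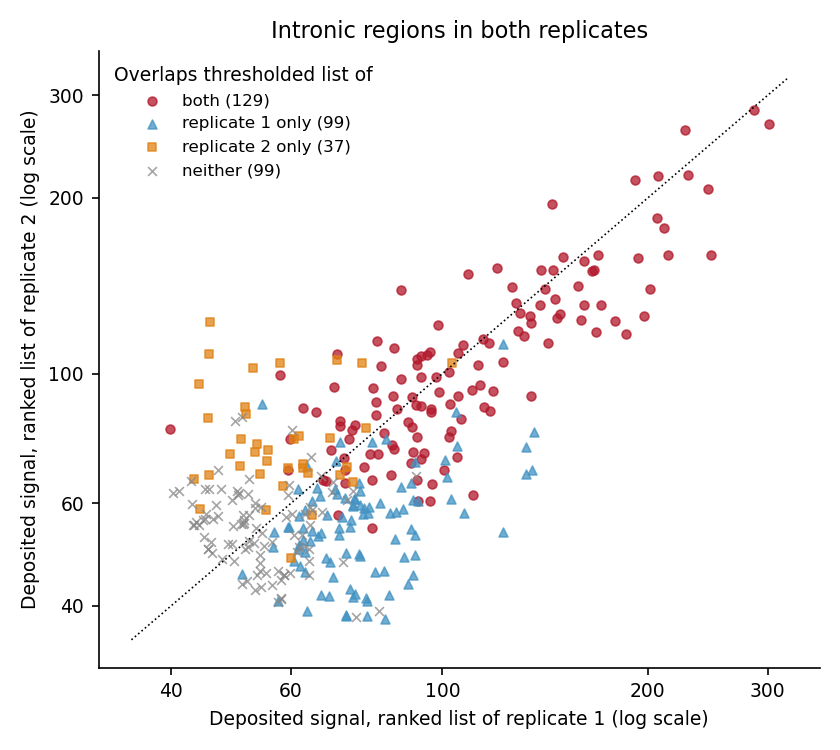
Deposited signal of intronic regions in the ranked lists of replicate 1 (horizontal) and replicate 2 (vertical), both on log scales, with 1 point per region matched in both lists. Red circles overlap the thresholded lists of both replicates, blue triangles replicate 1 only, orange squares replicate 2 only and grey crosses neither; the dotted line marks equal signals. Circles reach the highest signals in both replicates (301.2 in replicate 1 and 283.4 in replicate 2), and the marks overlap in between.

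All 25 intronic regions of highest signal overlapped the lists of both replicates, which come from the same 2 libraries as the signal. Of the 25, 20 lay over 500 bp from any protein-coding start, against 63.9% of all 368 members and 79.4% of intron positions. The highest was in the last intron of mom-1, the worm Porcupine enzyme that acylates Wnt ligands, on chromosome X (6296223 to 6296925). Its signal was 567.9, with 301.2 in the ranked list of replicate 1 and 267.4 in that of replicate 2. The nearest annotated start, that of cest-16, was 3378 bp downstream of the summit. The next was in intron 4 of ppfr-1, a regulatory subunit of protein phosphatase 4, on chromosome I (9382717 to 9383401), with a signal of 565.5 and with 286.0 in replicate 1 and 283.4 in replicate 2. These were the strongest members in both replicates, and they ranked 10 and 11 among all nuclear regions. Of the 100 nuclear regions of highest signal, 11 were intronic, against 15.2% of all 2416 nuclear regions.

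Below these, Y41G9A.17 had a signal of 484.6 (226.8 in replicate 1 and 261.9 in replicate 2), in its intron 6. M03C11.3 had 456.4 (229.2 and 218.6 in replicates 1 and 2), with a summit 232 bp upstream of the start of hat-1. The region in ints-8, a subunit of the Integrator complex that cuts nascent RNAs, had 455.0 (245.1 and 207.1 in replicates 1 and 2), and its summit lay inside rpr-1, the gene of the RNase P RNA. In these 3 both replicates stood far above the median members, at 71.8 and 64.8. Replicate 1 was higher in 18 of the 25 highest members, in 229 of the 364 matched intronic regions and in 1146 of 2038 other regions. C33B4.4 had 421.2, gei-4 403.1, and mdt-26, a Mediator subunit, 398.4. Of pqn-41, a glutamine-rich protein needed for the death of the linker cell, 2 regions were among the 25, with 389.2 and 354.2. The region in epg-9, an autophagy gene related to ATG101, had 385.2. Further hosts among the 25 were let-526, an ARID subunit of the SWI/SNF remodeller (334.3), daf-5, a Sno/Ski partner of dauer TGF-beta signalling (325.7), scc-2, the cohesin loader (322.6), drap-1, a subunit of the NC2 corepressor (319.4), pbrm-1, a polybromo subunit of SWI/SNF (310.4) and zfp-1, the worm AF10 (298.4).

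At the low end, 4 members had a signal under 60. The lowest, 12.7, was in a 100912 bp intron of the nuclear hormone receptor gene nhr-27 on chromosome X, and it overlapped neither replicate's list. In the ranked lists it had 57.3 in replicate 1 and 40.7 in replicate 2, both below the first quartile of the intronic regions there (57.8 in replicate 1 and 53.8 in replicate 2).

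Over 1 in 2 summits lay in an intron longer than 2000 bp, and over 1 in 2 in a first intron. For scale, introns were sampled at every 100 bp with the same filter on small genes (330459 positions), and the 4845 intronic regions of the ranked list that did not reach the threshold were annotated in the same way. The median intron at a summit was 2237 bp long, against 975 bp in the regions below the threshold and 910 bp at intron positions. Where transcripts differ, the length is that of the shortest intron over the summit or position. These values cover the 365 members whose summit lies in an intron of at least 1 annotated protein-coding transcript. The other 3 lie inside their gene but in no intron of a protein-coding transcript. Introns over 2000 bp held 188 of the 365 (51.5%, 46.4 to 56.6), against 30.7% of the regions below the threshold and 27.8% of intron positions. Introns under 500 bp held 21.1%, against 31.2% and 30.2%. An intron that is first in at least 1 transcript held 215 of the 365 (58.9%, 53.8 to 63.8), against 34.8% of the regions below the threshold and 33.9% of positions.

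First introns are often the longest of a worm gene, so the shares were also taken within each length group. The group is by the shortest intron over the summit, and the first intron can be a longer one of another transcript. Among introns over 2000 bp, 67% of the summits were in a first intron, against 44.6% below the threshold and 51.5% of positions. Among introns of 500 to 2000 bp the shares were 56.0%, 31.3% and 29.5% in the same order, and among introns under 500 bp they were 42.9%, 29.5% and 23.9%. The excess was therefore present in all 3 length groups. First introns were as common among the 123 members of lowest signal (57.7%) as among the 123 of highest signal (59.5%), and the median signal was 131.0 in first introns and 131.2 in other introns. Median intron length did vary with signal, at 2655 bp in the highest group, 2237 bp in the middle group and 1609 bp in the lowest group. Within the intron, summits lay at a median of 52.9% of its length from the host's 5' side, and the median distance to the nearest exon was 281 bp, against 166 bp below the threshold and 186 bp at positions. Of the 368 regions 197 (53.5%) held no protein-coding exon over their whole width, and the other 171 reached into one.

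**Figure D2:**
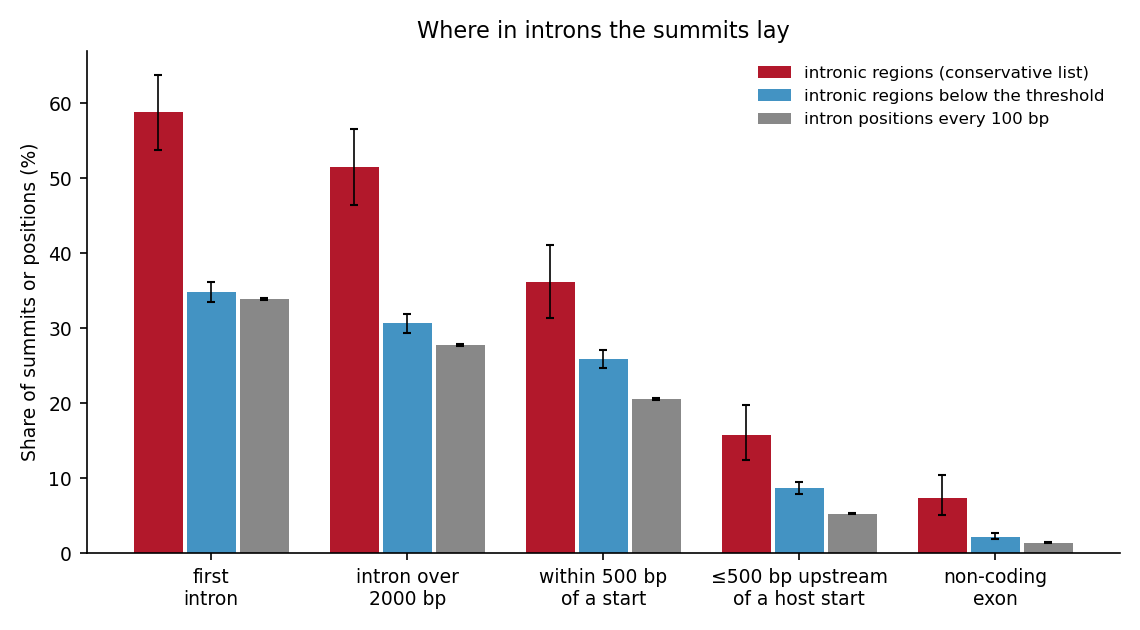
Share (%) of the intronic regions (red), of intronic regions of the ranked list below the threshold (blue) and of intron positions every 100 bp (grey) that met each of 5 descriptions; bars start at 0 and whiskers are 95% Wilson intervals. The red bar is the tallest in each group, at 58.9% for first introns and 7.34% for non-coding exons.

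Just over 1 in 3 summits was near an annotated start, and the excess was on the upstream side. Within 500 bp of a protein-coding transcript start lay 133 of 368 summits (36.1%, 31.4 to 41.2), against 25.9% of regions below the threshold and 20.6% of intron positions. Of these, 58 (15.8%) were upstream of an internal start of the host gene, where an alternative transcript begins, against 8.69% below the threshold and 5.25% of positions. A further 22 (5.98%) were upstream of the start of another gene, against 2.09% and 1.38%. Downstream of a host start lay 51 (13.9%), close to the 15% below the threshold and the 13.8% of positions. The densest bin of 250 bp was the one just upstream of a start, with 57 summits. Annotated starts of trans-spliced worm genes lie at the splice site rather than at the site of initiation, so these distances are to the annotated 5' end. The remaining 63.9% were over 500 bp from any annotated start.

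Many host genes had a later start ahead of the summit. An annotated start of the host gene lay downstream of the summit for 241 of 368 (65.5%), against 30.2% of positions, and within 2000 bp downstream for 155 (42.1%), against 15.7%. Of the 302 hosts 76 had a single annotated start, and the same count over all genes is not given here.

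The 22 summits upstream of another gene's start had the highest median signal of the 4 larger position groups, 154.3, against 126.4 upstream of a host start, 134.5 downstream of one and 130.9 far from any start. In the long intron of dhgd-1, a 2-hydroxyglutarate dehydrogenase gene, 1 summit (signal 367.9, with 214.0 in replicate 1 and 159.8 in replicate 2) was 221 bp upstream of the co-chaperone gene dnj-13. The other (264.3, with 139.2 and 131.0) was 99 bp upstream of F54D5.7. All 3 summits in cox-6B, which encodes a cytochrome c oxidase subunit, fell in its first intron of 86515 bp and next to a nested or neighbouring gene. They were 153 bp upstream of swsn-3, a SWI/SNF subunit (signal 174.9), 95 bp upstream of Y71H2AM.20 (165.4) and 102 bp upstream of pho-9 (122.3). Such members carry the name of a host whose own start is distant. Others in this group stood upstream of rpl-24.2 (262.7), a ribosomal protein gene, of pinn-1 (218.3), a prolyl isomerase, and of puf-3 (183.5), an RNA-binding repressor of the germ line.

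Of the 25 members of highest signal, lgc-31 had the shortest intron. The summit in lgc-31, a ligand-gated ion channel gene, was in an intron of 42 bp, 3 bp from an exon, and 972 bp from the start of the ribosomal protein gene rpl-38. Its signal was 332.9, with 145.0 in replicate 1 and 195.1 in replicate 2. At this distance an intronic and an exonic summit differ by less than the width of any region in the list. Introns under 100 bp held 23 members (6.30%), against 12.8% below the threshold and 9.33% of positions.

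**Figure D3:**
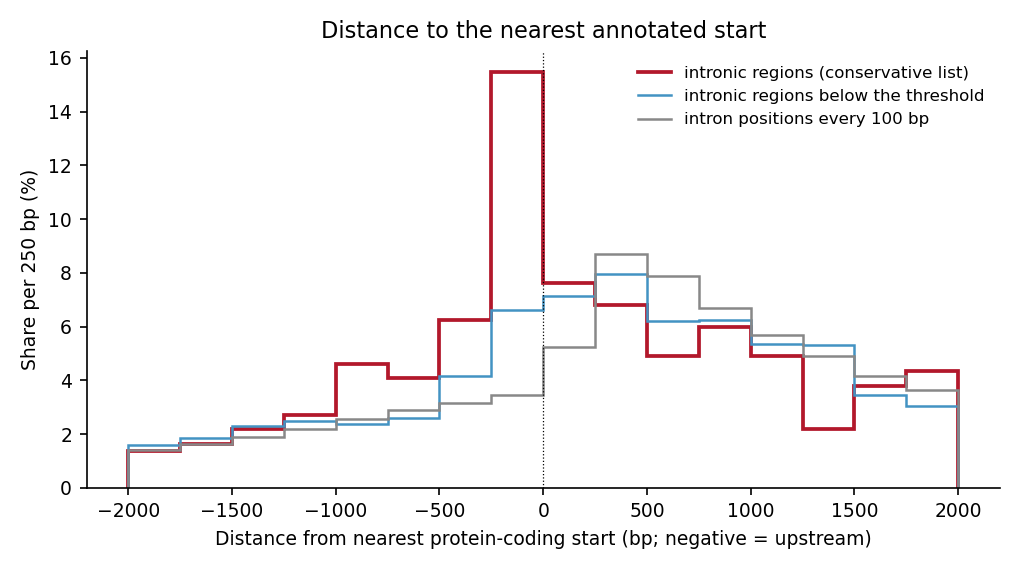
Share (%) of summits or positions per 250 bp of distance to the nearest annotated protein-coding start, with upstream distances negative, for intronic regions (red), intronic regions below the threshold (blue) and intron positions every 100 bp (grey). The red line peaks in the 250 bp upstream of the start, at 15.5%.

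Introns also hold genes of longer non-coding RNAs, and 27 summits (7.34%, 5.09 to 10.5) lay in an exon of one of these or of a pseudogene, against 2.21% of the regions below the threshold and 1.40% of intron positions. Of the 27, 20 lay in such an exon on the strand opposite to the host, on its own or with another on the host strand. Strand was not counted for the regions below the threshold or the intron positions, so this count has no background beside it. The median signal of the 27 was 153.3, against 131.7 over all 368. Of the 27, 10 overlapped both replicates' lists, beside 129 of all 368 (35.1%). Besides rpr-1 in ints-8, the summit in ppfr-1 was inside the antisense RNA gene anr-20 and inside F16A11.7, annotated as ncRNA on both strands, that in drap-1 inside F40F9.14 and F40F9.15, and that in the hnRNP U gene hrpu-1 (264.7) inside Y41E3.459. The summit in lin-42, the worm Period gene of developmental timing, lay in F47F6.13 and F47F6.15 (207.0, with 132.7 in replicate 1 and 75 in replicate 2). ChIP does not give a strand, so the host and the antisense gene cannot be told apart.

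GC content was higher at the summits than in their flanks. Intronic summits, with 50 bp on either side, were 45.9 ± 8.62% G or C (mean ± SD over 368 regions), against 36.1 ± 6.85% in flanks 500 bp away, a mean difference of 9.82 ± 10.4 percentage points. It was higher at the summit in 296 of 368 regions (80.4%, 76.1 to 84.2), close to the 79.3% of all nuclear regions. The mean difference was 9.16 in the other nuclear regions, 2.40 in the intronic regions below the threshold and −2.54 at intron positions. It was 6.36 in the intronic regions of the list of replicate 2 alone and 11.2 in those of replicate 1 alone. By signal, it was 11.6 in the highest group of 123, 10.3 in the middle and 7.61 in the lowest. Neither reads nor a control were used, so the part of library GC bias in this difference was not tested. Soft-masked repeats held 22.3% of intronic summits, against 15.2% of other nuclear regions, 41.6% of regions below the threshold and 51.4% of intron positions.

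The motifs counted within 150 bp of each summit, on either strand, are given beside the intron background. GAGAGA was in 170 of 368 windows (46.2%, 41.2 to 51.3), against 17.8% of the 736 flanks of the same regions, 35.2% of the other nuclear regions, 20% of those below the threshold and 12.5% of windows at intron positions. CACGTG was in 65 (17.7%, 14.1 to 21.9), against 5.30% of flanks, 10.3% of other regions, 7.06% below the threshold and 4.47% of intron windows. CACACA was in 33.2%, against 24.5% of other regions and 11.7% of intron windows, and GGCGGG in 14.4%, against 12.9% and 5.09%. TTATCA, a site of zinc-finger factors of the intestine, was in 24.7%, against 24.5% of other regions and 24.0% of intron windows. The remaining motifs were rarer at summits than in introns at large. TTTCAG, the usual end of a worm intron, was in 30.2%, against 36.3% of other regions and 50.8% of intron windows. AATAAA, the polyadenylation hexamer, was in 31.8%, against 48.0% and 51.2%, and TTTTTTTT in 19.3%, against 20.2% and 38.9%. These motifs differ in GC content as the windows do, and the part of base composition was not tested.

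GAGACGCAGA, the 10-mer capitalised in the first set of sequences, was within 50 bp of 25 of 368 summits (6.79%) and in 0 of 736 flank windows, which allows up to 3 in 736. It was in 4.64% of the other nuclear regions and 0.351% of intron positions, so it was not confined to introns. The 25 holders had a median signal of 133.8, against 131.6 for the rest, and 60% of them were in a first intron, against 58.8% of the rest. A match lay a median of 20.5 bp from the summit, but only matches within 50 bp were counted, so the window limits this distance. The Y73B6BL.31 intron held it at 2 places within 61 bp.

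**Figure D4:**
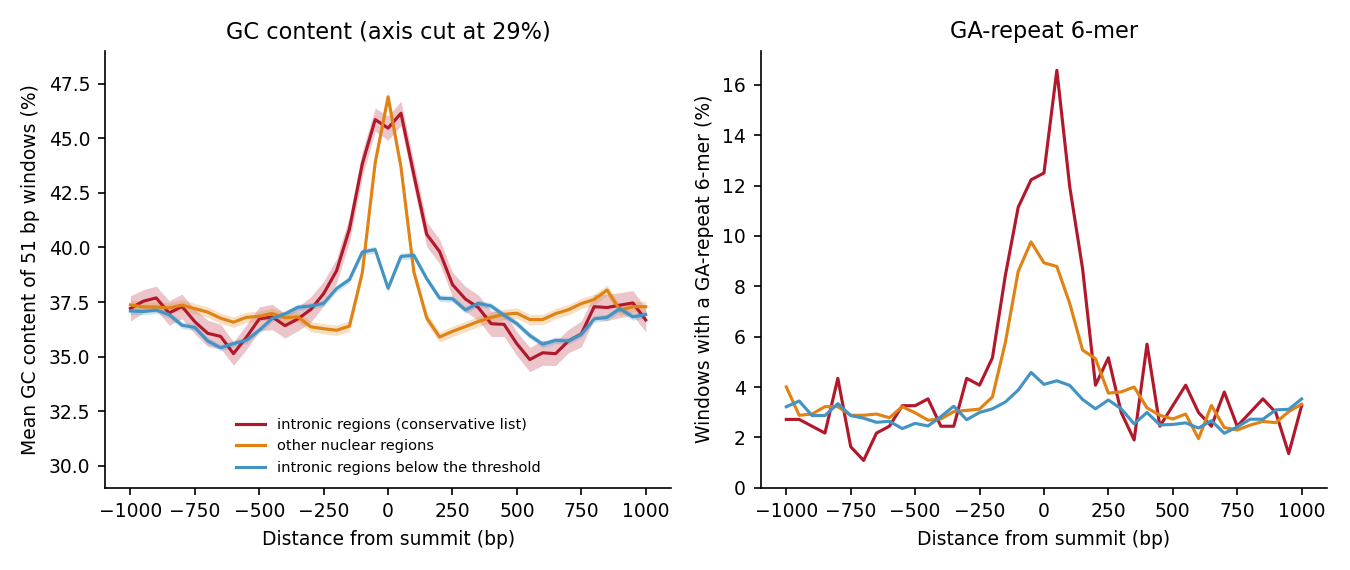
Left, mean GC content (%) of 51 bp windows by distance from the summit, with shading of 1 standard error; right, share (%) of these windows holding the GA-repeat 6-mer. Intronic regions are red, other nuclear regions orange and intronic regions below the threshold blue. The red GC curve stands at 45.5% and the orange at 46.9% at the summit, with the red one wider; the GA repeat reaches 16.6% of windows in the red curve, 50 bp to one side of the summit.

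Of the 302 hosts, 259 held 1 intronic region, 28 held 2, 8 held 3 and 7 held 4 or more. The 43 hosts with at least 2 had a median gene length of 13581 bp, against 5345 bp for hosts with 1 region, so longer genes held more. Y43F8B.2 held 5 (signals 94.5 to 202.4), of which 1 overlapped both replicates' lists. The 4 regions in pqn-41 (172.4 to 389.2) all overlapped both lists and all lay in 1 intron of 7776 bp, which is the first intron of a shorter transcript. The 4 in zfp-1 (178.8 to 298.4) lay in 2 introns that are first in some transcripts, and 3 overlapped both lists. The 4 in ppfr-1 (104.5 to 565.5) differed most in signal, with 2 in both lists and 2 in neither. The remaining hosts of 4 were let-526 (102.6 to 334.3), fkh-7, a forkhead factor gene (99.1 to 215.0), and ZK470.2 (86.1 to 205.1), each with 1 region in both lists. Members in 1 intron share a host and a stretch of sequence and are not independent of each other.

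**Figure D5:**
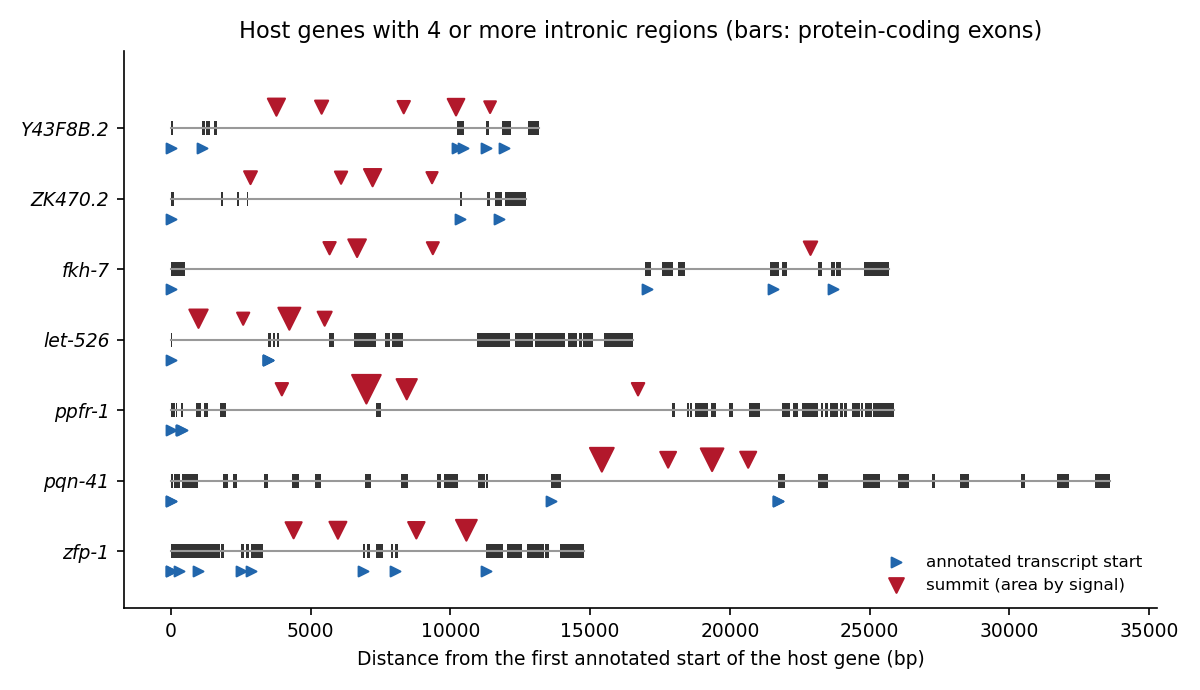
The 7 host genes with 4 or more intronic regions, drawn to scale by distance (bp) from the first annotated start of each gene, with transcription to the right. Red triangles are summits with an area in proportion to signal, blue arrowheads are annotated transcript starts and dark bars are protein-coding exons; the summits of pqn-41 lie between its exons at about the middle of the gene.

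The 6 gene lists held between 0 and 27.2 intronic regions per Mb of intron, and the differences between lists were not tested. The lists are described by counts beside the 1.57% of all genes with an intron and the 11.1 intronic regions per Mb of their introns. Transcription factors and chromatin proteins had 19 hosts of 476 genes (3.99%) with 29 regions, or 27.2 per Mb of intron. Among them were fkh-7, egl-27, an MTA-type chromatin protein (signal 266.8), nhr-19 (243.6), skn-1 (162.9 and 95.4), atf-7, a bZIP factor (161.6 and 113.0), hlh-30, the worm TFEB (110.1 to 126.6 in 3 regions), daf-16, the FOXO factor of insulin signalling (91.7 to 125.4 in 3), and the heterochronic gene lin-14 (137.3 and 126.9). Values by replicate for the strongest of these were 126.3 in replicate 1 and 140.7 in replicate 2 for egl-27, and 131.6 and 115.8 for nhr-19. All 3 regions of daf-16 and all 3 of hlh-30 were outside the list of replicate 2, while skn-1 and fkh-7 each had 1 region in both lists.

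Kinases and phosphatases had 7 hosts of 82 genes (8.54%) with 10 regions, or 26.8 per Mb, of which 4 were in ppfr-1. The others were aak-2, the catalytic subunit of AMP-activated kinase (247.8), mpk-1, the worm ERK (183.0), kin-20, a casein kinase (152.6), kin-1, the catalytic subunit of protein kinase A (144.4), pkc-1, a protein kinase C (119.9), and unc-43, the worm CaMKII (95.6). RNA-binding and splicing proteins had 3 hosts of 104 (2.88%), at 12 per Mb, namely larp-1 (190.5), prp-39, a U1 snRNP factor (109.5), and hrpa-2 (108.4). Ion channels and transporters had 2 hosts of 159 (1.26%), lgc-31 (332.9) and twk-45 (117.8), at 2.85 per Mb. Cell adhesion, cytoskeleton and muscle had 1 of 48, vab-10 (104.6), at 3.19 per Mb. Translation genes had 0 of 187, and their introns are short, at 0.548 kb per gene against 1.71 kb over all genes. These introns came to 0.1025 Mb in all, so the rate of 0 per Mb rests on little sequence. A count of 0 in 187 allows up to 3. The lists take genes by symbol, and some hosts of each kind are outside them. Examples are rla-1, a ribosomal stalk protein gene with a signal of 289.9, and the kinase genes mnk-1 (197.4) and egl-4 (139.4). The hnRNP U gene hrpu-1 (264.7 and 206.6) and the chromatin genes zfp-1, let-526 and pbrm-1 are also outside. The counts and rates therefore cover the listed symbols and not each class as a whole. Intron length differs between lists, so the rate per Mb of intron is the closer comparison.

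The filter on small non-coding genes set the list apart from all intronic summits. Before it, 485 summits were intronic, and it dropped 117 (24.1%), of which 53 were near tRNA genes, 43 near snoRNA genes, 15 near snRNA genes and 6 near miRNA genes. The same filter removed 0.748% of intron sequence. The members nearest the limit were in zip-2, 265 bp from the snoRNA gene K02F3.15 (signal 146.9), and in F09A5.3, 273 bp from cel-mir-54 (300) and 330 bp from cel-mir-56 (198.2). Of the summits dropped, the farthest from a small gene were in gcn-1, 250 bp from cel-mir-229 (259.6), elf-1, 216 bp from C24A1.8 (131.5), and E01G4.3, 208 bp from cel-mir-4929 (164.4).

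Density per chromosome was 11.6 intronic regions per Mb of intron on I, 11.1 on II, 11.8 on III, 11.8 on IV, 9.82 on V and 11.0 on X. Of the intronic summits 32 (8.70%) resembled another place in the genome over the 100 bp on either side, against 8.40% of other nuclear regions and 23.7% of regions below the threshold. There were 11 with over 20 such matches, and the ppfr-1 summit of signal 565.5 had 319. Each alignment was counted, up to 100 per chromosome, so these are not counts of separate places. Reads from such repeats could be placed at more than 1 copy, and how the authors handled them is not given in the sources used here.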

How the data were processed

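Peak lists of 2 biological replicates were used as deposited by the authors on assembly ce11, per the labels. Aligner, peak caller and depth: not given in the sources used here. Each row's deposited signal and −log10 q-value are the authors' own values, and the q-values were read but not used. The deposited −log10 global IDR was at least 2, or 0.01, in the thresholded lists. No interval passed the end of its chromosome in the reference. Regions were merged and annotated with Ensembl 115 (Python 3.11.15, numpy 2.4.6, pandas 2.3.3), and 3 hosts took their symbol from RefSeq. Intervals are Wilson 95% intervals (scipy 1.17.1). Matches to other places are hits of blastn 2.17.0 (megablast) for each summit with 100 bp on either side. With 1 group and 2 libraries no test was run. The rule was checked on simulated summits. Named were the 25 members of highest signal, hosts with at least 2 regions, members of 6 gene lists and summits next to the 250 bp limit, and the other genes named near starts and in non-coding exons were chosen after their values were seen. The members, lists and motifs were chosen with earlier results of these data known. Alternatives covered the list, replicate, threshold, filter, merging, summit and windows.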

Additional observations from a re-analysis of the deposited data

How the results depend on the processing

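Of 83 recomputed values 60 stayed close to the value reported. Close meant within its 95% interval, within 1 SD for GC content, or within 1.5 times for the count of regions. The SD for GC content is the spread over regions, a wide band from −0.604 to 20.25 percentage points. A GC difference of 6.36 in the list of replicate 2 alone therefore counted as close to 9.82. At a global IDR of at most 0.001 there were 144 intronic regions, 11.9% of nuclear regions, with a median signal of 190.9 and 11.8% in non-coding exons. Without regions of the commonest width there were 127, 11.8% of nuclear regions, with a median signal of 188.1. With no filter on small non-coding genes the share of nuclear regions was 20.1%, the median intron 1346 bp, the first intron share 51%, the non-coding exon share 16.9% and the median signal 136.6. At least 100 bp from an exon, 11.1% of nuclear regions were intronic, with a median intron of 3187 bp and 27.2% near a start. Unmerged rows had a median signal of 121.8, and barring exons of any gene left 0% in non-coding exons by construction. In the ranked lists of both replicates 98.9% of members were found. In the list of 1 replicate alone the number of regions was 190 to 273, the share of nuclear regions 12.3 to 14.0%, the share near a start 35.9 to 44.2%, the first intron share 58.5 to 60.1% and the median signal 81.6 to 83.4. Signals of single replicates and of the series may be on different scales. No paired analysis was possible because there is only 1 group. Depth is unknown, so what it limits cannot be given.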
